A study of Mus musculus with 6 samples.

Results

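Osteoclast genes were examined in mouse BMSC cultures. BMSCs, bone marrow mesenchymal stromal cells, grow attached to plastic and can become osteoblasts. Ctsk, Acp5, Mmp9, Calcr, Ocstamp, Dcstamp, Oscar, Atp6v0d2, Nfatc1 and Tnfrsf11a were chosen by name, 10 genes of the 54532 counted, to ask whether the macrophages of such cultures carry osteoclast transcripts. The cells came from bone of wild type mice whose age and sex the labels do not give, and both groups spent 7 days in osteogenic medium with dexamethasone, ascorbic acid and β-glycerophosphate. The Ni group also received 0.1 μM nickel ion (NiCl2), the control group the vehicle, and each group had 3 libraries described as biological replicates. Whether they came from separate animals is not stated, so p-values measure the spread between these cultures. No macrophage colony-stimulating factor or RANKL is listed among the additions to the medium.

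Osteoclasts are the cells that dissolve bone. They arise when precursors of the macrophage lineage, kept alive by CSF1 through its receptor CSF1R, receive RANKL (Tnfsf11) at RANK (Tnfrsf11a), which switches on the transcription factor NFATc1. Their precursors then fuse through DC-STAMP and OC-STAMP, and the mature cell secretes acid, cathepsin K and tartrate-resistant acid phosphatase (TRAP, Acp5) onto bone and responds to calcitonin through its receptor, Calcr. Several of these genes are not exclusive to osteoclasts: TRAP is also made by macrophages, cathepsin K by mesenchymal cells and MMP9 by neutrophils.

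The libraries held from 16101033 to 18642504 counts. Macrophage transcripts were plentiful, with 20 macrophage markers taking from 3.06% to 3.64% of the counts of a library, while 12 stromal markers took from 0.764% to 1.36% and 12 osteoblast markers from 0.572% to 2.02%. Control replicate 3 stood apart from the other controls, and Ni replicate 2, less far, from the other Ni libraries. The chi-square per degree of freedom between libraries, a measure of distance in which 1 is sampling noise, was 40.5 and 43.6 between control replicate 3 and control replicates 1 and 2, against 8.07 between those libraries themselves. It was 18.6 and 21.7 between Ni replicate 2 and Ni replicates 1 and 3, against 4.37 between those. The fold changes of the 6 genes that could be tested, and the counts of calls in gene lists, are therefore given with and without control replicate 3, and Ni replicate 2 is named where it moves a value. Control replicate 3 was singled out by these distances, and its removal leaves control replicates 1 and 2, which lay closer together. Adjusted p-values of that fit follow a choice made from the data. They show how calls depend on 1 library and are no separate evidence of a Ni effect.

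The 10 genes fell into 2 sets by level. Acp5, Ctsk, Mmp9, Tnfrsf11a, Nfatc1 and Atp6v0d2 took 104721 of the 104863856 counts of the 6 libraries and passed the filter on low counts. Calcr, Ocstamp, Dcstamp and Oscar had 46 counts together and did not pass. Receptor, transcription factor and secreted enzymes of the lineage were thus measured well, whereas the genes of fusion and of the calcitonin response were at the limit of detection.

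RefSeq promoters were examined for 5 of the 10 genes, in 8 windows of 250 bases before a start. Nfatc1 was left out of this step, and no promoter was at hand for Mmp9, Ocstamp, Dcstamp or Atp6v0d2. The 3 windows that hold a match to the motifs named here are shown, of Ctsk and Acp5, which ordered the libraries in opposite ways, and of Oscar, which was barely counted. The other 5, of Tnfrsf11a, Calcr (2 starts) and the outer 2 starts of Acp5, hold none. The sequences are RefSeq's for GRCm38.p6 and run 5′ to 3′ on the gene's strand up to the annotated start, except that the Acp5 stretch stops 10 bases short of it, where another annotation places an exon. Capitals mark matches on either strand to TCATGTG or TCACGTG, the E-box forms that MITF and TFE3 bind, and to GAGGAA, a core of the sites bound by PU.1 (Spi1).
Ctsk (chr3:95498960-95499209, plus strand): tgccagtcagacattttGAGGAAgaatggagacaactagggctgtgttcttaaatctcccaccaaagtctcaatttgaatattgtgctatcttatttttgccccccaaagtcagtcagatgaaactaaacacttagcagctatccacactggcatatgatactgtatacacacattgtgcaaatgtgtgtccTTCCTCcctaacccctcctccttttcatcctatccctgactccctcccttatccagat
Acp5, the innermost of 3 annotated starts (chr9:22130609-22130848, minus strand): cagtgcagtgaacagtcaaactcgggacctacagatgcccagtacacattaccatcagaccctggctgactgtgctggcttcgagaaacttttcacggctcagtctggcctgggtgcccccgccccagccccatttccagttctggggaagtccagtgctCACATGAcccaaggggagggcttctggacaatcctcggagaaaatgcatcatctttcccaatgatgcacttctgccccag
Oscar (chr7:3616158-3616407, minus strand): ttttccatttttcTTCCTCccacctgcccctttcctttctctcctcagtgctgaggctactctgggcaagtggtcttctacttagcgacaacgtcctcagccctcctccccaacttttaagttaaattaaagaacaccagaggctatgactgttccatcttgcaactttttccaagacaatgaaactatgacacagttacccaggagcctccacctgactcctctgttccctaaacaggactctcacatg
In Ctsk the GAGGAA matches began 233 and 58 bases before the start, in Oscar 237 bases before it. The E-box match of Acp5 began 90 bases before its start, counting the 10 bases not printed, and is of the form TCATGTG, read on the other strand. Of 32851 annotated mouse promoters, 23.3% hold GAGGAA, 3.25% TCATGTG and 3.13% TCACGTG in their 250 bases before the start, so the GAGGAA matches are common ones. A match is a string of letters here and no measurement of binding. The RNAs of the factors themselves were all present: Spi1 averaged 473 ± 117 CPM in the control group against 349 ± 69.4 CPM with Ni, Mitf 42.0 ± 5.21 against 45.1 ± 1.88 CPM, and Tfe3 145 ± 25.8 against 116 ± 11.0 CPM (SD, n = 3 each). CPM are counts relative to library size, after scaling by edgeR's TMM method.

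Levels per length were compared in FPKM, the authors' values scaled for gene length and library size. Acp5 was the most abundant of the 10 genes, with a mean of 328 FPKM over the 6 libraries, rank 105 among 22046 protein-coding genes. Csf1r, the receptor that marks the macrophage lineage, had a mean of 379 FPKM and rank 80, and Cd68, a lysosomal protein of macrophages, 261 FPKM and rank 133. By these means Acp5 RNA lay between these macrophage markers, and far below Lyz2, the lysozyme of macrophages, at 8883 FPKM and rank 1. In no single library did Acp5 lie between Cd68 and Csf1r. It was above both in control replicates 1 and 2, at 496 and 582 FPKM. In the other libraries, at 203 to 247 FPKM, it was below both.

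Ctsk followed at a mean of 73.8 FPKM (rank 582), Mmp9 at 15.7 FPKM (rank 3039), Tnfrsf11a at 13.7 FPKM (rank 3442), Nfatc1 at 9.96 FPKM (rank 4499) and Atp6v0d2 at 3.84 FPKM (rank 7743). The ranges of Mmp9, from 7.06 to 24.2 FPKM, and Tnfrsf11a, from 11.9 to 15.9 FPKM, overlapped, so those neighbours are not ordered beyond their spread, nor are Tnfrsf11a and Nfatc1 ordered against Mmp9. Ctsk and Acp5 did not overlap with each other or with any other of the 10 genes. Below a wide gap came Oscar at 0.109 FPKM, Dcstamp at 0.0527, Ocstamp at 0.0168 and Calcr at 0.0126, each overlapping its neighbour in that order, although Oscar and Calcr did not overlap.

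**Figure D1:**
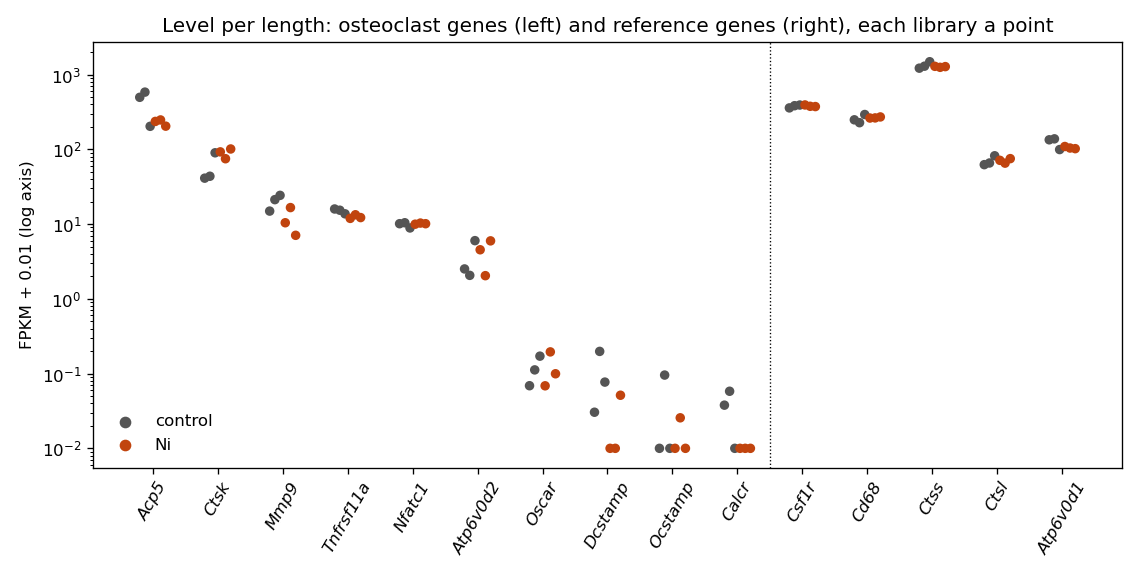
Level per length of the 10 osteoclast genes (left of the dotted line, by mean) and of 5 reference genes (right), in FPKM plus 0.01 on a log axis, with each library a point (grey control, orange Ni). Acp5 lies beside Csf1r and Cd68, and Oscar, Dcstamp, Ocstamp and Calcr lie under 0.2 FPKM in every library.

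Receptor and transcription factor came first in the pathway and varied least. Tnfrsf11a (ENSMUSG00000026321, chromosome 1, 105780718 to 105847981, GRCm38), the gene of RANK, was at 95.8, 92.1 and 82.6 CPM in the controls (replicates 1 to 3, in that order throughout) and at 71.2, 80.8 and 73.4 CPM in the Ni libraries. Every Ni library was below every control library, by a small step. The group means were 90.2 ± 6.82 CPM and 75.1 ± 5.02 CPM (SD, n = 3 each), which is -0.26 as a log2 fold change (standard error 0.10). By the quasi-likelihood test in edgeR its unadjusted p was 0.0226 and its adjusted p, by Benjamini-Hochberg over 14624 genes, 0.334. The exact two-sided permutation test gave p = 0.1, the smallest that 3 libraries against 3 allow. Of all genes tested, 6.71% likewise had the Ni libraries entirely below the controls. In bulk RNA such as this, fewer cells of a type and less RNA per cell cannot be told apart.

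Nfatc1 (ENSMUSG00000033016, chromosome 18, 80606205 to 80713071), the master transcription factor of osteoclast formation, was the steadiest of the 6 genes tested. Its level was 75.5, 77.9 and 66.5 CPM in the controls and 74.2, 77.7 and 75.5 CPM in the Ni libraries. The groups overlapped almost fully, with a log2 fold change of 0.05 (standard error 0.09, edgeR adjusted p = 0.865) and an exact two-sided permutation p of 0.8. RNA for both RANK and NFATc1 was thus in all 6 cultures, with 8635 counts over the libraries for the first and 7810 for the second.

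The secreted enzymes varied more. Acp5 (ENSMUSG00000001348, chromosome 9, 22126727 to 22135711) was at 1013, 1190 and 417 CPM in the controls and at 481, 506 and 415 CPM in the Ni libraries. Control replicates 1 and 2 were high and control replicate 3 was as low as the Ni libraries, so the groups overlapped. The means were 873 ± 405 CPM and 468 ± 47.2 CPM (SD, n = 3 each), giving -0.90 on the log2 scale (standard error 0.35, edgeR adjusted p = 0.352) and an exact two-sided permutation p of 0.3. Of its exon bases, 6.75% lie under an exon of a gene on the opposite strand, and the strand setting of the counting is not given.

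Ctsk (ENSMUSG00000028111, chromosome 3, 95499256 to 95509362), which encodes the collagen-degrading protease cathepsin K, ordered the same libraries the other way. It was at 62.6, 66.3 and 137 CPM in the controls and at 140, 114 and 154 CPM in the Ni libraries. Control replicates 1 and 2 were low, and control replicate 3 lay among the Ni libraries. The means were 88.7 ± 42.0 CPM and 136 ± 20.1 CPM (SD, n = 3 each), a log2 fold change of 0.62 (standard error 0.31, edgeR adjusted p = 0.419) and an exact two-sided permutation p of 0.2.

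Mmp9 (ENSMUSG00000017737, chromosome 2, 164940780 to 164955850), a gelatinase that osteoclasts secrete, was at 53.2, 75.7 and 86.5 CPM in the controls and at 36.8, 59.5 and 25.1 CPM in the Ni libraries. Here control replicate 3 was the highest library and Ni replicate 2 lay among the controls. Mmp9 gave a log2 fold change of -0.83 (standard error 0.32) with an edgeR adjusted p of 0.35, and the exact two-sided permutation p was 0.2. Neutrophils, another known source of Mmp9, left little RNA: 13 neutrophil markers summed to between 3.97 and 10.6 CPM in controls and between 6.08 and 6.68 CPM in Ni libraries. Of these markers 9 stayed under 10 counts in every library, and S100a9, Ngp, Ltf and Retnlg were listed at 0 in all of them. The 4 tested were Mmp8, at 28 to 105 counts a library, S100a8 (10 to 23), Camp (15 to 23) and Prtn3 (7 to 22). The highest sum, 10.6 CPM, was in control replicate 3, the library with the most Mmp9, and Mmp8 was 6.3 CPM of that sum. The part of neutrophils in the level of Mmp9 was not tested.

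Atp6v0d2 (ENSMUSG00000028238, chromosome 4, 19876841 to 19922605) encodes the d2 subunit of the proton pump, used by osteoclasts and some macrophages. It was at 6.83, 5.61 and 16.4 CPM in the controls and at 12.3, 5.58 and 16.2 CPM in the Ni libraries, so both groups held high and low libraries. The difference was 0.24 on the log2 scale (standard error 0.50, edgeR adjusted p = 0.875, exact two-sided permutation p = 1.0). Its paralog Atp6v0d1, the subunit found in most cells, was far higher per length, at 124 ± 21.1 FPKM in controls and 105 ± 3.70 FPKM in Ni libraries (SD, n = 3 each). Atp6v0d2 was from 1.49% to 6.04% of Atp6v0d1 in FPKM in the controls and from 1.96% to 5.85% in the Ni libraries.

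The fusion and calcitonin genes were next to absent from the counts. Dcstamp (ENSMUSG00000022303, chromosome 15, 39745930 to 39760938), required for the fusion of precursors, drew 1, 8 and 3 counts in controls, then 0, 0 and 2 with Ni. Ocstamp (ENSMUSG00000027670, chromosome 2, 165393760 to 165400405), its partner in fusion, drew 0, 5 and 0 counts in controls, then 0, 1 and 0 with Ni. The highest count of both genes was in control replicate 2, the library with 19 of the 46 counts of these 4 genes.

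Calcr (ENSMUSG00000023964, chromosome 6, 3685680 to 3764714), the calcitonin receptor of mature osteoclasts, drew 2, 3 and 0 counts in controls, then 0 in each Ni library. Oscar (ENSMUSG00000054594, chromosome 7, 3609813 to 3616157), a costimulatory collagen receptor, drew 2, 3 and 5 counts in controls, then 2, 6 and 3 with Ni. Oscar was the 1 gene of these 4 that was counted in every library. A count of 0 allows up to 3 counts, or from 0.161 to 0.186 CPM in these libraries, which covers counting error alone. With nearly every value at or close to that limit, no fold change is given for these 4 genes, and a difference between the groups was not detectable at this depth.

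**Figure D2:**
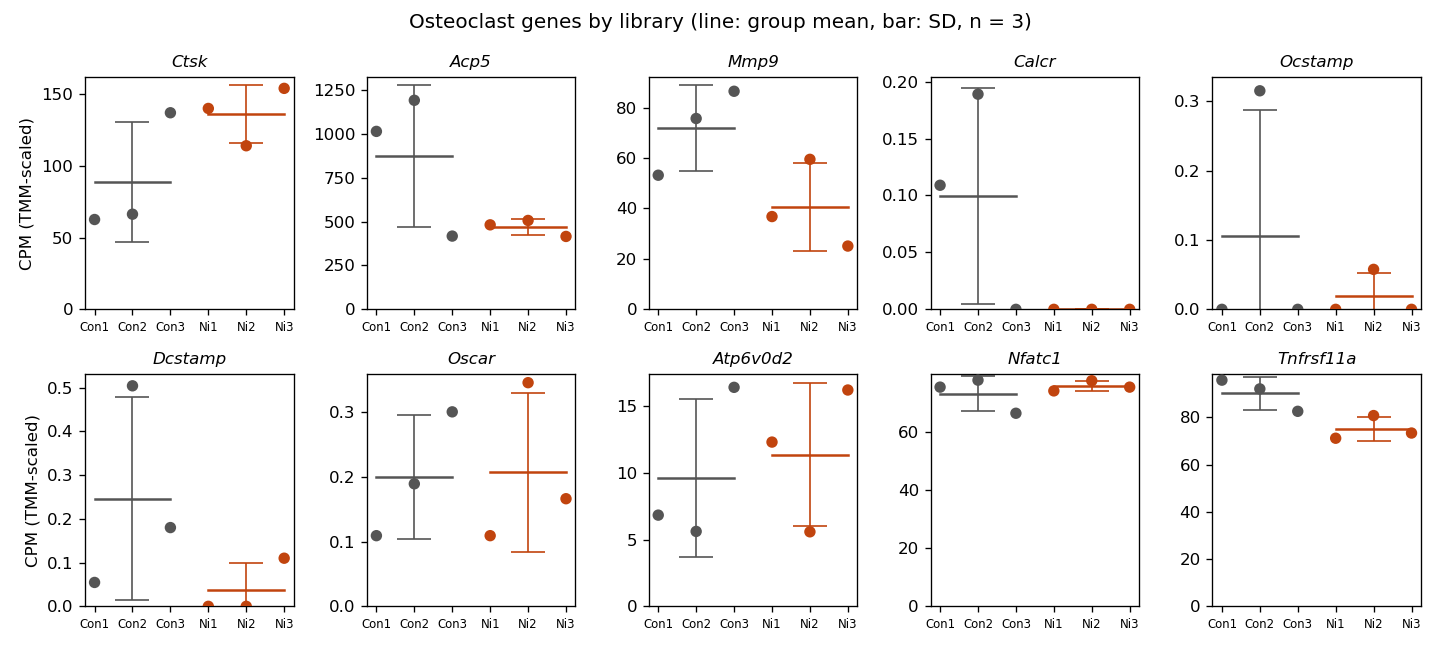
Level of each of the 10 osteoclast genes by library, in TMM-scaled CPM from 0 on separate linear axes, with the group mean as a line and the SD as a bar (n = 3, cut at 0 where it would pass below). Acp5 is high and Ctsk low in control replicates 1 and 2, Nfatc1 lies between 66.5 and 77.9 CPM, and Calcr, Ocstamp, Dcstamp and Oscar stay under 0.6 CPM.

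None of the 6 genes tested was called at an adjusted p of 0.05 in edgeR, nor in DESeq2 or in limma on log2(FPKM + 1). Over all 14624 genes tested the share called in edgeR was likewise 0.0%. At an unadjusted p under 0.05 edgeR gave 3 of the 6, Tnfrsf11a, Acp5 and Mmp9, and DESeq2 gave the same 3. Limma gave Ctsk, higher in Ni (unadjusted p = 0.044), in place of Acp5 (0.0687), beside Mmp9 and Tnfrsf11a. All 3 of edgeR's were lower in the Ni libraries, where 13.4% of all genes tested passed that threshold in either direction and 5.83% passed it with the lower level in Ni. The 6 log2 fold changes were split evenly, 3 above and 3 below 0, with a median of -0.11 beside -0.01 over all genes tested.

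Whether control replicate 3 was kept decided the calls, and it had been picked for its distance from the other controls. Without it, 3 of the 6 genes passed an adjusted p of 0.05 in edgeR, where 15.2% of 15044 genes did, 6.49% lower and 8.69% higher in Ni. Ctsk was then higher in the Ni libraries, with a log2 fold change of 1.08 (adjusted p = 0.000194), and Acp5 lower, at -1.23 (adjusted p = 5.85e-05). Tnfrsf11a was lower, at -0.32 (adjusted p = 0.0418). The other genes stayed on the same side of the threshold, with Mmp9 at -0.67 (adjusted p = 0.436), Atp6v0d2 at 0.88 (adjusted p = 0.239) and Nfatc1 at -0.01 (adjusted p = 0.955). Leaving out Ni replicate 2 instead gave no adjusted call, with Mmp9 at -1.21 (edgeR adjusted p = 0.133) and Atp6v0d2 at 0.57 (edgeR adjusted p = 0.523).

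**Figure D3:**
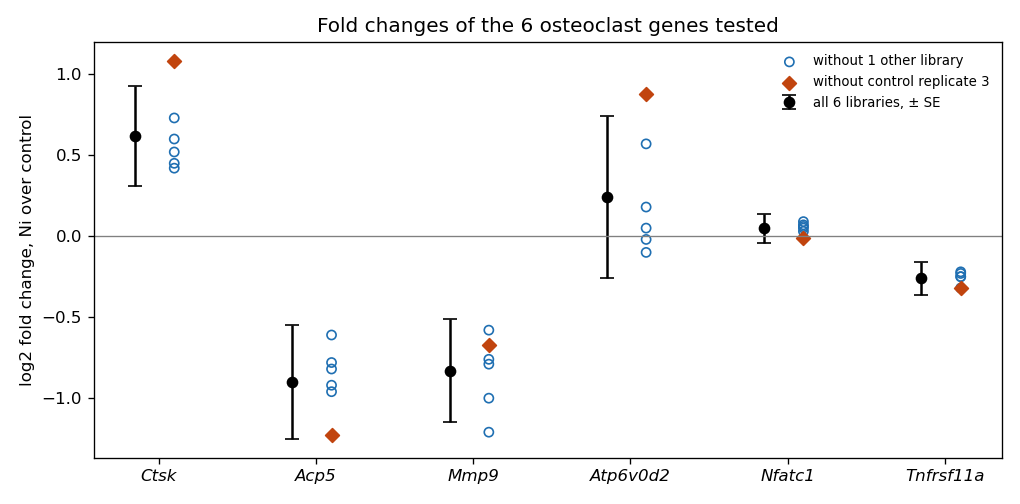
Log2 fold change, Ni over control, of the 6 osteoclast genes tested: black points with the standard error are from all 6 libraries, open circles from the fits without 1 other library, diamonds from the fit without control replicate 3. That library moves Ctsk from 0.62 to 1.08, Acp5 from -0.90 to -1.23 and Atp6v0d2 from 0.24 to 0.88.

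Ctsk and Acp5 were also set against each other within a library. This and the other ratios were picked after the values were seen. In FPKM, Ctsk was 8.29%, 7.48% and 44.2% of Acp5 in the controls and 39.1%, 30.3% and 49.8% in the Ni libraries. The split lay between control replicates 1 and 2 and the other 4 libraries, and so not between the groups.

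Csf1r was taken as 1 macrophage transcript whose level was close in both groups, at 1859 ± 86.2 CPM in controls and 1868 ± 45.3 CPM with Ni (SD, n = 3 each), a log2 fold change of 0.01, or 0.04 without control replicate 3. Acp5 was 138%, 152% and 52.0% of Csf1r in FPKM in the controls and 60.4%, 65.6% and 54.6% in the Ni libraries. Ctsk was 11.5%, 11.4% and 23.0% of Csf1r in the controls and 23.6%, 19.9% and 27.2% in the Ni libraries. Relative to Csf1r, then, Acp5 and Ctsk still differed between libraries, and in opposite directions. Macrophage markers did not all follow Csf1r, and they differed in direction. Adgre1 (F4/80) was at 3729, 3781 and 2553 CPM in the controls and 2793, 2342 and 2753 CPM with Ni. It was highest in control replicates 1 and 2, as Acp5 was. Lyz2, at 10329, 9616 and 15097 CPM in the controls and 12188, 10801 and 12596 CPM with Ni, was lowest in those controls. Cd68 had a log2 fold change of 0.05.

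When edgeR was scaled to the summed counts of the 20 macrophage markers in place of TMM, the log2 fold change was 0.72 for Ctsk (adjusted p = 0.179) and -0.87 for Acp5 (adjusted p = 0.474). Lyz2 had the largest part in that sum, 15097 of 36170 CPM in control replicate 3, so this scaling leaned on 1 gene. Beside cathepsin L, a protease of most cells, Ctsk was 66.0%, 66.4% and 110.0% in the controls and 130.0%, 115% and 135% in the Ni libraries, in FPKM. Of cathepsin S (Ctss), the protease of antigen-presenting cells, it was at most 7.94% in any library.

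Profiles over the libraries were compared as log2 CPM less each gene's own mean, by the root mean square difference over the 6 libraries. Ctsk differed from the mean of the macrophage markers by 0.574, from that of the osteoblast markers by 0.337 and from that of the stromal markers by 0.313. Acp5 differed by 0.569, 1.33 and 0.819 in the same order. Atp6v0d2 differed by 0.693, 0.589 and 0.522 and Mmp9 by 0.554, 1.27 and 0.751, again in that order. Nfatc1 and Tnfrsf11a lay nearest the macrophage mean, at 0.118 and 0.104, against 0.777 and 0.916 for the osteoblast mean. The macrophage mean spanned 0.171 and the osteoblast mean 1.94, so any steady gene lies nearer the first by this measure. A gene that varies differs from so flat a mean by about its own SD over the libraries. That SD was 0.614 for Acp5 and 0.608 for Mmp9, so their differences of 0.569 and 0.554 show no likeness to the macrophage mean. No cell source is read from these values. Genes of these profiles share 6 libraries, and their likeness is a description of those libraries alone.

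**Figure D4:**
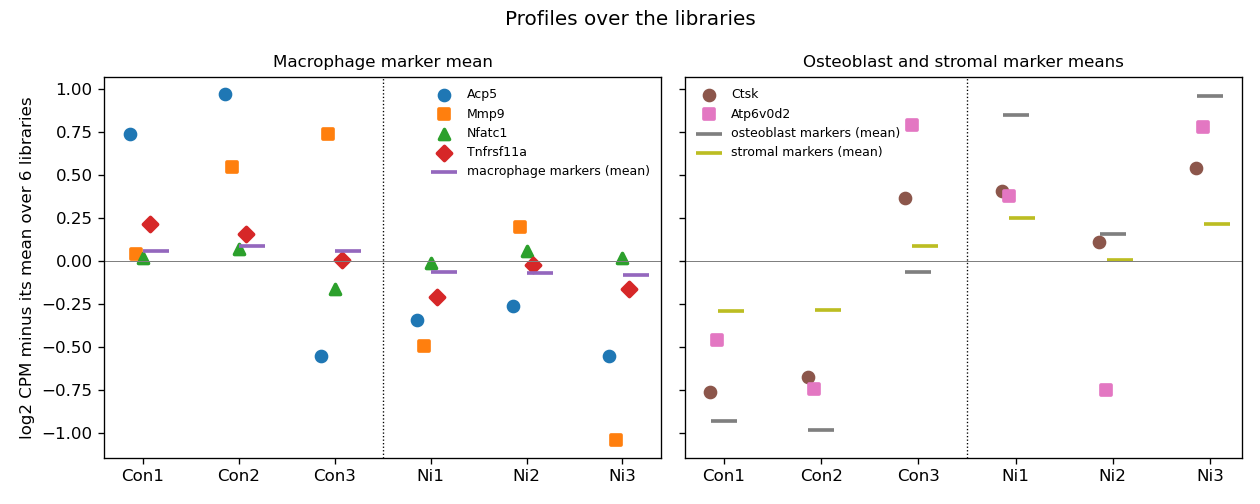
Log2 CPM less each profile's own mean over the 6 libraries, for the osteoclast genes (points) and the means of marker lists (bars), with controls left of the dotted line and Ni right of it. The macrophage mean spans 0.171 on this scale and Acp5 1.52, and Ctsk and the osteoblast mean are lowest in control replicates 1 and 2.

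The genes most like Ctsk by this measure, among 12470 compared, were Prelp (difference 0.0779), Igsf10 (0.080) and Plekhg4 (0.0804). Those most like Acp5 were Fgf11 (0.0573), Gm13375 (0.0642) and Cd52 (0.0667). Mmp9 had looser neighbours, C1s2 (0.159), Tppp3 (0.192) and Mrpl52 (0.230), and so had Atp6v0d2, with Bst1 (0.149), Lpar4 (0.249) and Tfpi2 (0.284). Nfatc1 and Tnfrsf11a, which spanned 0.229 and 0.429, had close ones, among them Chd8 (0.0112), Pdxdc1 (0.031) and Noa1 (0.0327) for Nfatc1 and Nin (0.0287), Casp9 (0.0325) and Rragd (0.0329) for Tnfrsf11a.

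The ligands that act on these receptors were measured in the same libraries. Tnfsf11 (RANKL) was at 6.07, 6.11 and 4.92 CPM in the controls and 2.55, 4.26 and 2.82 CPM in the Ni libraries, every Ni library below every control (log2 fold change -0.83, standard error 0.25, edgeR adjusted p = 0.293). Of all genes tested, 6.71% were likewise entirely below. These levels rest on 111, 97 and 82 counts in the controls and 47, 74 and 51 in the Ni libraries. Tnfrsf11b (osteoprotegerin), the decoy that binds RANKL, was at 59.7, 55.4 and 82.5 CPM in the controls and 100.0, 79.5 and 98.1 CPM in the Ni libraries (log2 fold change 0.49, adjusted p = 0.306 in edgeR). Osteoprotegerin RNA exceeded RANKL RNA in every library: per length, Tnfsf11 was from 7.52% to 13.9% of Tnfrsf11b in the controls and from 3.21% to 6.75% in the Ni libraries. These ranges did not overlap, but their nearest values, 7.52% and 6.75%, were close. This ratio too was picked after the values were seen, and no share over other gene pairs is at hand. Csf1 had a log2 fold change of 0.13 and Il34, the second ligand of CSF1R, of 0.19 (edgeR adjusted p = 0.76 and 0.556). Without control replicate 3, Tnfsf11 was lower at -0.92 (edgeR adjusted p = 0.0344), and Tnfrsf11b and Csf1 were higher, at 0.69 and 0.33 (edgeR adjusted p = 0.0017 and 0.0407), while Il34 was at 0.23 (edgeR adjusted p = 0.362).

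Downstream of RANK, 27 genes of RANK and costimulatory signalling all passed the filter. None was called at an adjusted p of 0.05, 10 were lower and 0 higher at an unadjusted p under 0.05, and the median log2 fold change was -0.15. Of all genes tested 5.83% were lower and 7.59% higher at that threshold, with a median of -0.01. Without control replicate 3, 12 of the 27 were lower and 1 higher at an adjusted p of 0.05, with a median of -0.26, beside 6.49% lower and 8.69% higher of all genes. Both pairs of shares over all genes apply to the counts of the other lists. The RANK pathway's Relb and Nfkb2, of the noncanonical NF-κB branch, had log2 fold changes of -0.39 and -0.39 (standard error 0.13 each), or -0.46 and -0.47 without control replicate 3 (edgeR adjusted p = 0.0225 each). The adaptor Fcer1g, which pairs with OSCAR, was at 626, 746 and 493 CPM in controls and 443, 522 and 404 CPM in Ni libraries, abundant where Oscar itself was barely counted. Sirpb1a, a receptor that signals through such adaptors, was at -0.80 (standard error 0.27), or -0.94 without control replicate 3 (edgeR adjusted p = 0.0296). Traf6, the adaptor that RANK binds, was at 0.03 (standard error 0.11), or 0.09 without that library.

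Of 16 further genes of osteoclast attachment, acid secretion and trafficking, 14 were tested, none was called at an adjusted p of 0.05, while unadjusted p values under 0.05 went to 2 genes, both higher. These were Src, a kinase needed for the ruffled border, and Mmp14, a membrane-bound collagenase that mesenchymal cells also make, with log2 fold changes of 0.43 each (standard error 0.15 and 0.16). Without control replicate 3 the adjusted calls were 3 higher and 2 lower, Src (0.61) and Mmp14 (0.65) among the higher. Tcirg1, the a3 subunit of the osteoclast proton pump, and Snx10, a sorting nexin of acid secretion, had -0.28 and -0.20, or -0.36 and -0.21 without control replicate 3 (edgeR adjusted p = 0.0398 and 0.162). Itgb3, the β3 chain of the integrin by which osteoclasts hold on to bone, was low, at 7.84 ± 0.497 CPM in controls and 8.45 ± 1.16 CPM in Ni libraries (SD, n = 3 each). Siglec15, a surface receptor of the osteoclast lineage, and Rufy4 stayed under 10 counts in every library, as the fusion genes did.

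Among 12 repressors of osteoclast formation, none was called after adjustment, and 2 higher and 2 lower had an unadjusted p under 0.05. Adjusted calls were 2 higher and 3 lower without control replicate 3. Id1, an inhibitor of helix-loop-helix transcription factors, was at 0.63 on the log2 scale (standard error 0.13), while Tnfaip3 and Pirb were at -0.39 and -0.35 (standard error 0.12 each). These were 0.71, -0.51 and -0.45 without control replicate 3 (edgeR adjusted p = 0.00495, 0.00316 and 0.00315). Pirb, like Sirpb1a, has near-identical relatives that could share its reads, so both values are uncertain. Of 17 proton pump subunits, 16 had a negative log2 fold change, where 48.1% of all genes tested had a positive one, with 4 lower and 0 higher at an unadjusted p under 0.05 and a median of -0.12. The adjusted calls without control replicate 3 were 5 lower and 0 higher. Among the 4 were Atp6v1b2 and Atp6v1e1, at -0.38 and -0.24, or -0.54 and -0.28 without that library. Of 9 cysteine cathepsins listed beside Ctsk, 8 were tested and 1 was lower at an unadjusted p under 0.05, Ctsc, which activates serine proteases of leukocytes, at -0.46 (standard error 0.17), and 2 were lower after adjustment without control replicate 3, Ctsc at -0.65 (edgeR adjusted p = 0.000281) among them.

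Markers of the cell types that could carry these RNAs were summed and tested in the same way. Of 20 macrophage markers, 3 were lower and 0 higher at an unadjusted p under 0.05, where 13.4% of all genes passed in either direction, with a median log2 fold change of -0.11, and their summed level was from 30788 to 36170 CPM in controls and from 30600 to 31576 CPM in Ni libraries. Itgam, Aif1 and Ptprc were the 3, of which Aif1 had the levels 213, 280 and 107 CPM in controls and 94.6, 126 and 84.0 CPM in Ni libraries, high like Acp5 in control replicates 1 and 2. Mrc1 ran the other way, at 1587, 1391 and 2543 CPM in controls and 2221, 2154 and 2144 CPM in Ni libraries. The markers thus had no common direction over the libraries. All 12 osteoblast markers were higher at an unadjusted p under 0.05, with a median of 1.30 and a summed level of 5684 to 11499 CPM in controls and 14867 to 20419 CPM in Ni libraries. The 12 stromal markers had a median of 0.23, with 4 higher and 1 lower at that threshold. Without control replicate 3, the adjusted calls were 1 higher (Mrc1, log2 fold change 0.55) and 5 lower for macrophage markers. They were 9 and 0 for osteoblast markers and 6 and 1 for stromal markers, where 15.2% of all genes were called. The part of these shifts in the levels of Ctsk and Acp5 was not tested.

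**Figure D5:**
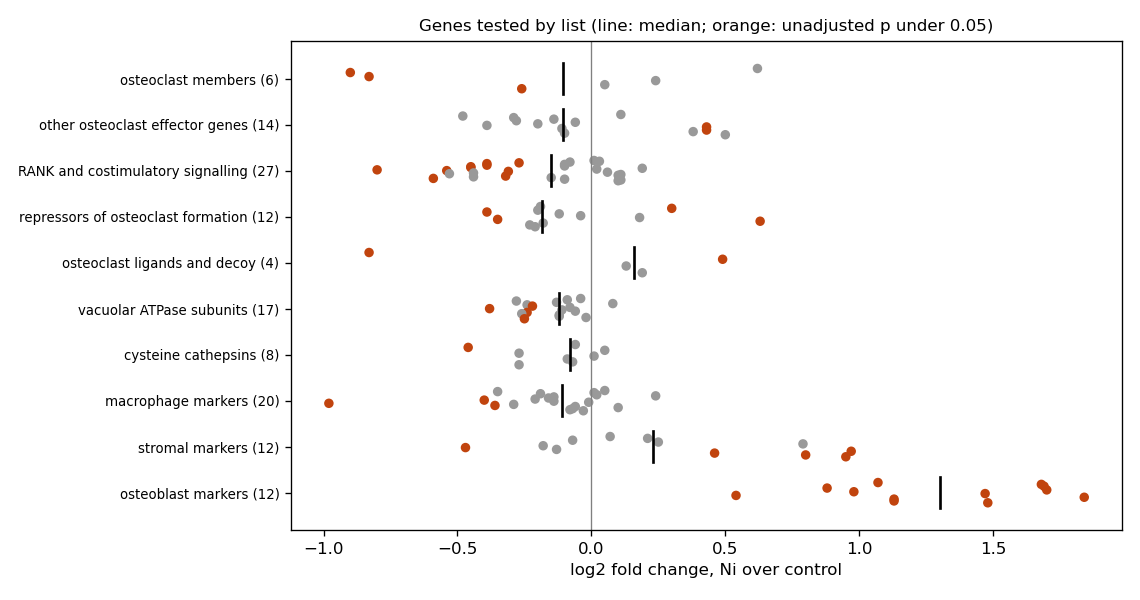
Log2 fold change, Ni over control, of every gene tested in each list (number tested in brackets), with the list's median as a line and genes at an unadjusted p under 0.05 in orange. The osteoclast genes lie on both sides of 0 with a median of -0.11, as do the macrophage markers, whereas the 12 osteoblast markers all lie above 0.5.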

How the data were processed

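RNA of 3 control and 3 Ni cultures was sequenced. The authors deposited raw counts of reads per gene, without normalization, and FPKM values of the same genes, which equal those counts over gene length and 1 factor per library within a relative deviation of 3.29e-07. The submitters' processing notes name GRCm38. The aligner, counter, strand setting and count model are not given in the sources used here.

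Genes were matched by name in the deposited annotation, 10 of 10. The 14624 genes that passed filterByExpr received TMM factors and the robust quasi-likelihood test of edgeR 4.0.16 (R 4.3.3, prior count 0.125), and p-values were adjusted by Benjamini-Hochberg. Alternatives used limma 3.58.1, DESeq2 1.42.0, other scalings and filters, and left out each library. The standard error is the unshrunk coefficient over the root of F. Profiles used log2 CPM with a prior count of 2 and genes with a mean of at least 1. The fit was tested on simulated data. Besides the 10 genes, at most 4 genes a list (smallest unadjusted p), Tnfsf11, Tnfrsf11b, Csf1, Csf1r, Cd68, Atp6v0d1, Ctsl, Ctss, Itgb3 and 3 nearest profiles per gene were to be named. S100a9, Ngp, Ltf, Retnlg, Siglec15, Rufy4, Traf6, Spi1, Mitf, Tfe3, Adgre1, Lyz2 and Mrc1 were added after values were seen. The genes and lists were chosen with earlier results of these data known. A gene that this rule names among the repressors is not reported here.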

Additional observations from a re-analysis of the deposited data

How the results depend on the processing

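With 3 libraries a group, single libraries weighed on every count. Of the 6 genes tested, 3 had an unadjusted p under 0.05, all lower in Ni, beside 13.4% of all genes tested in either direction. The number for the osteoclast genes was 1 with edgeR scaled to the macrophage marker counts, namely Ctsk, higher in Ni. With no filter on low counts, where all 10 genes had a value, it was 1, Tnfrsf11a. The cause of either change in this number was not tested. With each library left out in turn it ranged from 0 (without control replicate 2, Ni replicate 1 or Ni replicate 3) to 4, and was 1 without control replicate 1. Adjusted calls over those fits numbered 0 to 3, the latter without control replicate 3, and 0 under each of the 9 other alternatives. Over the same fits the log2 fold change ranged from 0.42 to 1.08 for Ctsk, from -1.23 to -0.61 for Acp5, from -1.21 to -0.58 for Mmp9 and from -0.32 to -0.22 for Tnfrsf11a. Atp6v0d2 ranged from -0.10 to 0.88, turning negative without control replicate 2 (-0.02) or Ni replicate 3 (-0.10), and Nfatc1 from -0.01 to 0.09. The adjusted p over all alternatives ranged from 0.000194 to 0.856 for Ctsk and from 5.85e-05 to 0.844 for Acp5. Deviations from the group means correlated at 0.0104, 0.256 and 0.138 between libraries of 1 number. The sample titles state no pairing, and with 3 libraries a group these correlations cannot decide whether there was one. With the replicate block, 4 of the 6 genes had an unadjusted p under 0.05 and 0 an adjusted one. Shares of all genes are at hand only for the main fit and, at an adjusted p, for the fit without control replicate 3. For the other alternatives, these counts cannot tell a shift of the osteoclast genes from a shift of all genes. Depth limits Calcr, Ocstamp, Dcstamp and Oscar.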

Other observations

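Markers of further cell types were at low levels. Of 8 B and T cell markers, 5 were at 0 in every library and 1, Cd79b, was tested, at 35.1, 42.2 and 13.7 CPM in control replicates 1 to 3 and 18.8, 18.4 and 14.8 CPM in Ni replicates 1 to 3, high in the same 2 controls as Acp5. The 8 erythroid and megakaryocyte markers summed to between 2.71 and 4.15 CPM in a library. The 6 endothelial markers summed to between 43.5 and 75.5 CPM, most of it Pecam1, which leukocytes also express, with a log2 fold change of -0.65 (standard error 0.25, edgeR adjusted p = 0.347). Without control replicate 3, Pecam1 was at -0.89 (edgeR adjusted p = 0.00118) and Cd79b at -1.15 (edgeR adjusted p = 0.000242).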
